A study of Mus musculus with 51 samples.

Results

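This report describes 6 transcripts of macrophages, Lyz2, Tyrobp, Cd52, Adgre1, Laptm5 and F13a1, on 51 mouse expression arrays from a study of cell reprogramming. The 6 are a small share of 16593 genes with a named probe. They were chosen from measured values, because earlier results of these arrays had them far apart between the 2 embryonic stem cell (ESC) arrays, and between the 2 fibroblast arrays. The values of those 4 arrays are therefore a description, with no test. Where a gene has several probes, the brightest on average across the 51 arrays stands for it.

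The cultures started from mouse embryonic fibroblasts that received c-Myc, Oct4, Sox2 and Klf4, switched on by doxycycline through rtTA, and all 51 arrays carry the same rtTA mouse label. ESC have 2 arrays. Clonal lines of the primary cultures were taken at day 16 and labelled F-class (6 arrays) or C-class (22 arrays), and F-class clone 1 was taken again at day 30. Doxycycline-independent induced pluripotent stem cells (iPSC) have 2 arrays, 1 secondary and 1 primary, both of line 1B. Tet-Myc lines 1 and 2 have 1 array each after 48 h without doxycycline and 1 each with doxycycline. F-class cells given an unnamed histone deacetylase inhibitor (HDACi) have 2 arrays each at 0, 24 and 48 h. A secondary course of line 1B has single arrays at days 2, 5, 8, 11, 16 and 18, of which the last 2 are labelled F-class, and its day 0 is the secondary fibroblast array. The primary fibroblasts, the parental culture from embryos at day 15.5, have 1 array. The labels do not say how the classes were assigned, nor whether the 2 ESC arrays and the 2 HDACi arrays of a time came from separate cultures. The p-values below therefore measure the spread between these arrays, which may in part be technical.

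Macrophages are phagocytes of the blood lineage. They digest what they engulf in lysosomes, and they recognise it through receptors that signal with adaptor proteins. Most of them grow under the factor CSF1, and the transcription factor PU.1, made by the gene Spi1, directs much of their gene set. Fibroblasts and ESC belong to other lineages.

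All levels are normalized log2 intensities of a probe, so a difference of 1 is a 2-fold difference, and the levels of different genes' probes are not set against each other. A probe was called detected on an array where its deposited detection p-value was below 0.05. The lowest level of a detected probe lay between 5.29 and 5.77, depending on the array, and levels under it have no order. Where a gene was undetected on the lower array of a pair, the fold is a lower bound, taken against that array's lowest detected level. The share of detected probes per array lay between 46.6% and 53.4%, and the median deposited intensity ran between 108.7 and 212.11. The number of arrays limits the precision. The deposited intensities have 1 decimal on 31 arrays (ESC replicate 1, all clones and the primary fibroblasts) and more on 20 (ESC replicate 2, iPSC, Tet-Myc, HDACi and the secondary course with its fibroblasts).

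ESC replicate 1 held all 6 transcripts far above ESC replicate 2. The pair shared the pluripotency genes: all 12 of a fixed list were detected on both arrays, with a mean level of 12.58 on replicate 1 and 12.47 on replicate 2, and Nanog, a core pluripotency factor, stood at 12.24 and 12.60. Over 16593 genes the pair correlated at r = 0.9628, against 0.9912 for the iPSC pair. In bulk RNA, fewer cells of a type and less RNA per cell cannot be told apart.

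Lyz2, which makes the bacteriolytic enzyme lysozyme of macrophages and granulocytes, stood at 13.79 on ESC replicate 1 and 7.19 on ESC replicate 2, a 97.3-fold difference with both arrays detected. In the deposited, unnormalized intensities these were 11678.1 and 291.183. Laptm5, a membrane protein of the lysosome in blood cells, was detected on both arrays too, at 13.83 on replicate 1 and 11.36 on replicate 2, a 5.54-fold difference. These 2 lysosomal genes were the members with clear signal on the lower array as well.

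Tyrobp (DAP12), the adaptor that carries signals of Trem2 and other receptors inwards, stood at 10.02 on ESC replicate 1 and was undetected at 4.77 on replicate 2, at least 25.7-fold higher. Adgre1, the F4/80 antigen that marks mature mouse macrophages, stood at 8.96 on replicate 1 and was undetected at 4.68 on replicate 2, at least 12.3-fold higher. Cd52, a short surface glycoprotein of white blood cells, stood at 11.31 on replicate 1 and 5.34 on replicate 2, where its detection p-value of 0.049 was just inside the limit, a 62.9-fold difference. F13a1, the catalytic chain of coagulation factor XIII that monocytes, some macrophages and platelets make, stood at 10.97 on replicate 1 and was undetected at 4.52 on replicate 2, at least 49.7-fold higher. On replicate 1 all 4 were detected, and on replicate 2 none of the 4 stood clear of the background.

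All 6 were at least 2-fold higher on ESC replicate 1, where 10.9% of the 10047 genes detected on either array were higher and 8.18% lower, and their median difference was 5.61, against -0.02 over all those genes. With the undetected members at their bounds the median was 5.16, and without background correction it was 3.81. Among 8410 genes detected on both arrays, ranked by the difference, Lyz2 was number 1, Cd52 3 and Laptm5 107. Tyrobp, Adgre1 and F13a1 have bounds only and no rank. Other genes far higher on replicate 1 were Arg1, the arginase of alternatively activated macrophages, at least 188-fold, Lyz1, 89.8-fold, and Fcgr3, at least 63.6-fold. Among the 10 furthest the other way were Wt1, a transcription factor, lower on replicate 1 by a log2 difference of -3.91, and the sugar transferase gene B3gnt7 at -3.14.

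The secondary fibroblasts were the other array on which all 6 were detected. Lyz2 stood at 11.67 in secondary fibroblasts and 7.11 in primary fibroblasts, a 23.7-fold difference with both detected. Laptm5 stood at 11.24 in secondary and 8.01 in primary fibroblasts, a 9.36-fold difference. As in ESC, the 2 lysosomal genes had signal on the lower array.

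The other 4 members were undetected in primary fibroblasts. Tyrobp stood at 7.34 in secondary and 5.10 in primary fibroblasts (at least 3.36-fold). Cd52 stood at 7.44 in secondary and 5.35 in primary fibroblasts (at least 3.60-fold). Adgre1 stood at 7.09 in secondary and 5.26 in primary fibroblasts (at least 2.82-fold). F13a1, barely above background at 5.66 in secondary fibroblasts against 4.66 in primary fibroblasts, was the member nearest the line, at at least 1.05-fold.

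Of the 6 members, 5 were at least 2-fold higher in secondary fibroblasts, where 8.07% of 9372 genes detected on either array were higher and 7.35% lower. F13a1 was just outside, with a difference of 1.00 that rounds up to the line, and Adgre1, at 1.82, was the closest inside. The median difference of the 6 was 2.16, against 0.005 over all those genes. It was 1.80 with the undetected members at their bounds, and 1.00 without background correction, where Cd52, at 0.99, and Adgre1, at 0.80, also fell short of the line. Among 7980 genes detected on both arrays Lyz2 was number 1 by the difference and Laptm5 13. Of genes undetected in primary fibroblasts, Gdf10 was at least 37.1-fold higher in secondary fibroblasts, Cops8 at least 26.8-fold and the Y-linked Eif2s3y at least 17.0-fold. Xist, the RNA of the inactive X chromosome, was at least 10.5-fold lower in secondary fibroblasts, so these fibroblast arrays also differ in sex-linked transcripts.

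**Figure D1:**
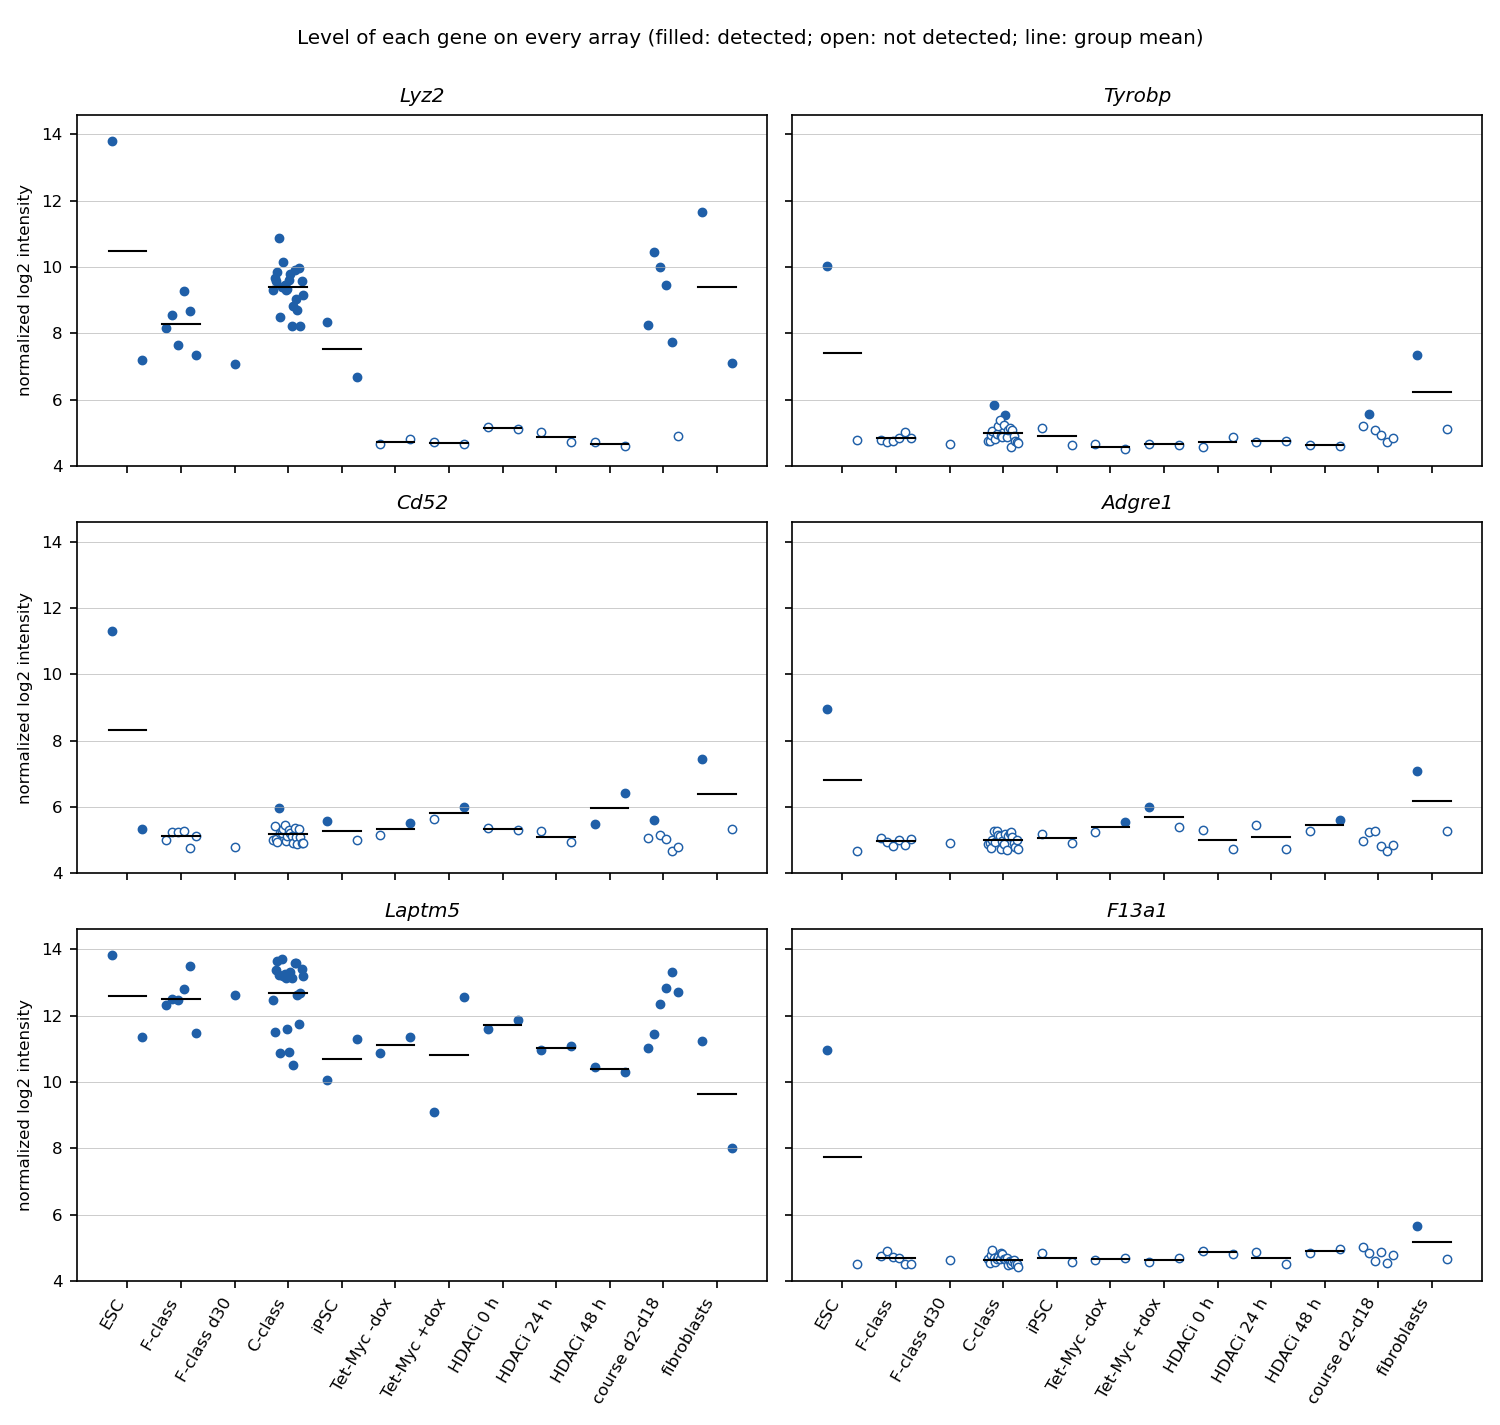
Normalized log2 intensity (vertical axis) of each of the 6 genes on every array, by group (horizontal axis); points are arrays, filled where the probe was detected, and lines are group means. In each panel ESC replicate 1 is the highest array, and secondary fibroblasts stand above primary fibroblasts.

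The level on ESC replicate 1 exceeded that in secondary fibroblasts for every member, by 2.12 for Lyz2 and 2.68 for Tyrobp. Both stood above the highest of the other 49 arrays for Lyz2 (10.88, C-class clone 15), Tyrobp (5.83, clone 15), Cd52 (6.42, HDACi at 48 h, replicate 2), Adgre1 (6.00, Tet-Myc line 1 with doxycycline) and F13a1 (5.02, secondary course at day 2). Laptm5 departed from this order: 13.70 on C-class clone 17 came close to ESC replicate 1, and many clones were above the 11.24 of the secondary fibroblasts. Lyz2 was detected on 40 arrays, Cd52 on 10, Tyrobp and Adgre1 on 5 each, F13a1 on 2 and Laptm5 on all 51. The 2 high arrays are of different decimal formats, and in each pair the formats differ, once with the high array of 1 decimal and once with the high array of more.

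Promoter sequences in the RefSeq table, on build GRCm38.p6, were found for 3 of the 6 members. They are shown because PU.1 binds a purine-rich core, and its letters GAGGAA, or TTCCTC when read on the opposite strand, are in capitals. Each is the 250 bases before a start site given there for the gene, written 5′ to 3′ on the gene's strand. The Laptm5 window lies inside the annotated span of that gene, so its start site is not the gene's first base.

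Laptm5, chr4:130913066-130913315, plus strand: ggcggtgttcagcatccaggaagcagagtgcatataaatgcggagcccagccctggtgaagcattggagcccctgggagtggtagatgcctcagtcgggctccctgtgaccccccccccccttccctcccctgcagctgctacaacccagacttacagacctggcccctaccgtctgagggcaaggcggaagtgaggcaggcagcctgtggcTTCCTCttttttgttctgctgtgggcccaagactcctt
Lyz2, chr10:117282273-117282522, minus strand: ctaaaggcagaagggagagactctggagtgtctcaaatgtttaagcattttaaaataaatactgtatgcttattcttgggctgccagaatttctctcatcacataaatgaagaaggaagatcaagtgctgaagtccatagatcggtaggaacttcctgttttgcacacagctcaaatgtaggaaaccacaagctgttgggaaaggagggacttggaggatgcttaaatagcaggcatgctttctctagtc
F13a1, chr13:37050245-37050494, minus strand: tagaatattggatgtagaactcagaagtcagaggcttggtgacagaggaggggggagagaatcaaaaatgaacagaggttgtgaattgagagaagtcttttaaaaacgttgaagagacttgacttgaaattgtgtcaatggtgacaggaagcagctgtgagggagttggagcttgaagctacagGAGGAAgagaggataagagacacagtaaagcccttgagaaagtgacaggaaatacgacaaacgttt

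Laptm5 holds the motif once, on the opposite strand, beginning at position -38 counted from that start site. F13a1 holds it once, beginning at position -66, and its second window in the table holds none. Lyz2 has no match in these letters. The motif was in 7639 of 32851 promoters in the table, or 23.3%, and a match is a description of letters only.

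A wider set of macrophage genes followed the same 2 arrays. Of 69 measured genes on 7 fixed lists, 40 were at least 2-fold higher on ESC replicate 1 and 0 lower, and 26 were higher and 2 lower in secondary fibroblasts. In both pairs 24 were higher, as were 5 of the 6 members, where 1.34% of 8740 genes detected in both pairs were. The median difference of the 69 was 1.16 between the ESC arrays and 0.55 between the fibroblast arrays. Of the 69, 50 were detected on either ESC array and 45 on either fibroblast array. With undetected levels at their bounds, 34 of the 50 were at least 2-fold higher on ESC replicate 1 (median 1.38) and 22 of the 45 in secondary fibroblasts (median 0.88). The count of 40 was 24 without background correction and 10 when both arrays had to detect the gene. The lists were drawn up with earlier results of these arrays known, so the counts are no independent evidence.

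Some of these are receptors that signal through Tyrobp and its relatives. Among Fc receptors, adaptors of the same kind and their signalling genes, 8 of 12 were higher on ESC replicate 1 and 5 in secondary fibroblasts. Fcgr3, a receptor for antibodies, stood at 11.32 on ESC replicate 1 and 4.80 on replicate 2, and at 9.09 in secondary and 5.91 in primary fibroblasts. Fcgr2b, the inhibitory antibody receptor, stood at 11.08 and 6.37 on the same ESC arrays, and at 8.80 in secondary and 4.76 in primary fibroblasts. Trem2, a lipid-sensing receptor that pairs with Tyrobp, stood at 9.41 and 5.07, and at 7.99 in secondary and 5.06 in primary fibroblasts. Tyrobp and Trem2 shifted with the same sign in both pairs. Tyrobp was chosen from these pairs and Trem2 was named for its likeness to the members, so this is no independent evidence.

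Complement C1q, whose chains macrophages secrete, was complete: C1qa, C1qb and C1qc were higher in both pairs, 3 of 5 complement genes on the list. C1qb stood at 10.78 on ESC replicate 1 and 4.57 on replicate 2, and at 9.58 in secondary and 4.80 in primary fibroblasts, at least 43.6-fold and 15.9-fold. The complement receptors C3ar1 and C5ar1 were undetected on all 51 arrays.

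Scavenger receptors and lysosomal genes were higher in 7 of 11 cases on ESC replicate 1 and in 5 in secondary fibroblasts. Mrc1, the mannose receptor, stood at 10.44 on ESC replicate 1 and 7.04 on replicate 2, and at 10.61 in secondary and 6.08 in primary fibroblasts. Lyz1, the paralog of Lyz2, stood at 15.37 and 8.88, and at 13.37 in secondary and 9.15 in primary fibroblasts. The 2 lysozyme genes are so alike that a probe of one may bind RNA of the other, and their levels correlated at r = 0.976 over 51 arrays. Of the 3 Lyz2 probes the one used was the highest. A second stood at 12.53 on ESC replicate 1, 4.70 on replicate 2, 8.65 in secondary and 5.58 in primary fibroblasts, and the third at 6.30, 4.66, 4.67 and 4.56 in the same order. The other 2 probes of Lyz1 were undetected on every array, at 4.93 and 4.86 on ESC replicate 1. Adgre1 has 3 probes too, of which a second stood at 9.48, 4.59, 6.74 and 4.91 and the third was undetected on every array.

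Genes of the leukocyte surface, oxidase and cytoskeleton were higher in 13 of 20 cases on ESC replicate 1 and in 7 in secondary fibroblasts. Coro1a, an actin-binding protein of blood cells, stood at 11.04 and 8.62 on the ESC arrays, and at 9.10 in secondary and 7.11 in primary fibroblasts. Cd14, the co-receptor for bacterial lipopolysaccharide, stood at 10.10 and 5.11, and at 9.41 in secondary and 6.88 in primary fibroblasts. Ptprc (CD45), Cybb, Fcer1g and Ccr2, which macrophages or monocytes usually express, were undetected on all 51 arrays, these 2 included. Spi1 itself was low, at 5.98 on ESC replicate 1 and undetected at 4.97 on replicate 2. It stood at 5.44 in secondary fibroblasts and was undetected in primary fibroblasts. These were the only 2 arrays that detected it.

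Chemokines and their receptors were higher in 6 of 10 cases on ESC replicate 1 and in 5 in secondary fibroblasts, where 1 was lower. Their values differed between the pairs. Pf4, the platelet and macrophage chemokine CXCL4, stood at 9.91 on ESC replicate 1 and 4.58 on replicate 2, at least 23.9-fold, and was undetected in both fibroblast arrays. Ccl12, a monocyte attractant, stood at 5.99 and 4.72 on the ESC arrays but at 9.06 in secondary and 5.24 in primary fibroblasts, at least 11.1-fold. Ccl2, made by fibroblasts as well, was lower in secondary (5.72) than in primary fibroblasts (8.29).

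Among genes of MHC class II, which present antigen, 5 of 7 were higher on ESC replicate 1 and 1 in secondary fibroblasts. The difference between the pairs was not tested. Cd74, the invariant chain, stood at 9.97 on ESC replicate 1 and 6.31 on replicate 2, and at 5.56 in secondary and 5.77 in primary fibroblasts. Among 8 macrophage transcription factors, 3 were higher on ESC replicate 1 (Spi1, Irf8 and Runx1), and in secondary fibroblasts 1 was higher (Cebpa) and 1 lower (Runx1). None of 3 measured receptors for colony-stimulating factors passed 2-fold in either pair. Csf1r, Cd68 and Mpeg1 are not analysed here. Csf1, the growth factor of macrophages, stood at 9.19 on ESC replicate 1 and 7.99 on replicate 2, and at 8.47 in secondary and 9.70 in primary fibroblasts.

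**Figure D2:**
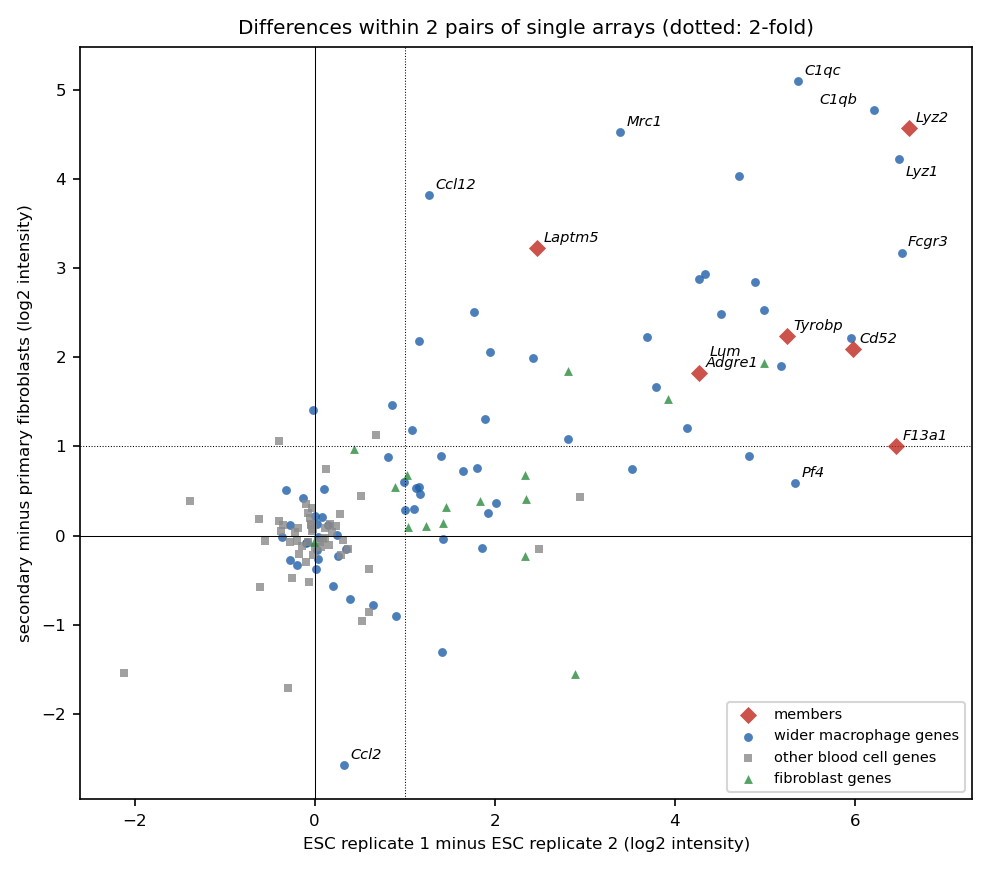
Difference of log2 intensity between ESC replicate 1 and replicate 2 (horizontal axis) and between secondary and primary fibroblasts (vertical axis) for the 6 members, 69 wider macrophage genes, 51 genes of other blood cells and 16 fibroblast genes; points are genes and dotted lines mark 2-fold. Members and many macrophage genes lie to the upper right, and most genes of other blood cells lie near 0, with 16 of 51 detected on either ESC array and 13 on either fibroblast array.

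Markers of other blood cells were mostly undetected. Of 51 genes of dendritic, T and NK, B, neutrophil, mast, erythroid and megakaryocyte lists, 2 were higher and 2 lower on ESC replicate 1, 2 were higher and 2 lower in secondary fibroblasts, and 0 were higher in both pairs. Only 16 of the 51 were detected on either ESC array and 13 on either fibroblast array, so most had no measurable difference. The 2 higher on ESC replicate 1 were neutrophil genes, S100a8 (7.77 and 4.82 on replicates 1 and 2) and Lcn2 (7.08 and 4.59), both also known from other inflamed tissue. The 2 lower were Ppbp and Itgb3, of platelets. The 2 higher in secondary fibroblasts were Cd83 and Cma1, at bounds of at least 1.12-fold and 1.28-fold, and the 2 lower were Cd3e and Ppbp.

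Fibroblast genes moved with the macrophage genes in the ESC pair. Of 16 such genes, 13 were higher on ESC replicate 1 and 0 lower, and their mean level was 10.05 on replicate 1 and 8.11 on replicate 2. It was 9.60 in the secondary and 9.49 in the primary iPSC, where the mean of the wider macrophage list was only 5.54 and 5.61. Dcn, a matrix proteoglycan, stood at 12.18 and 8.25, a 15.2-fold difference, and Lum, its relative, at 9.97 and 4.98, at least 24.8-fold. In the fibroblast pair 3 were higher and 1 lower, with means of 12.86 in secondary and 12.37 in primary fibroblasts. Of 8 endothelial genes 1 was lower on ESC replicate 1, and 1 was higher and 1 lower in secondary fibroblasts. Of 6 interferon-induced genes 2 were higher on ESC replicate 1 and 3 in secondary fibroblasts. The part of other cells or of an immune response in the members' levels was not tested.

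**Figure D3:**
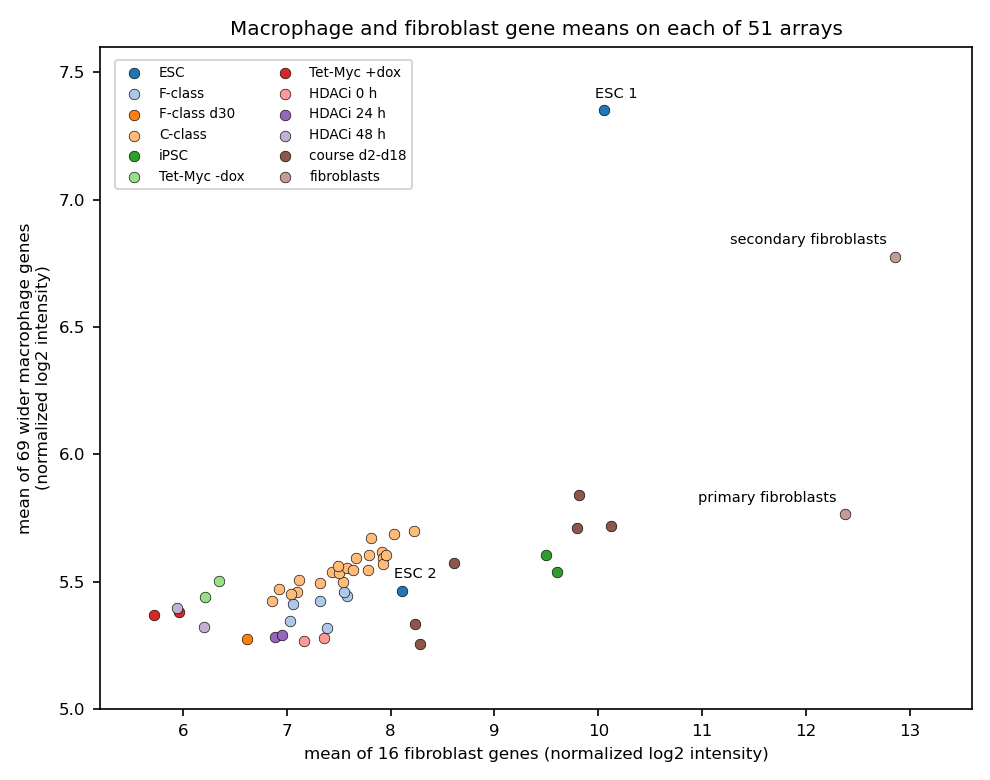
Mean level of 16 fibroblast genes (horizontal axis) and of 69 wider macrophage genes (vertical axis), both in normalized log2 intensity, on each of 51 arrays; points are arrays, coloured by group. ESC replicate 1 (7.35) and secondary fibroblasts (6.78) stand above all other arrays on the macrophage axis, while the primary fibroblasts share the high fibroblast level.

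On the other arrays the mean of the wider macrophage list was near background, with 10 to 28 of its 69 genes detected. Its mean level was 7.35 on ESC replicate 1, 5.46 on replicate 2, 6.78 in secondary fibroblasts and 5.76 in primary fibroblasts. It was 5.54 and 5.61 in the secondary and the primary iPSC. Over F-class clones it ran between 5.32 and 5.46, and over C-class clones between 5.42 and 5.70. The highest of the remaining arrays was the secondary course at day 5, at 5.84.

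Along the secondary course Tyrobp, Cd52, Adgre1 and F13a1 were near background from day 2 on. These are single arrays, so the course has no replicate check. Tyrobp stood at 7.34 at day 0, 5.22 at day 2, 5.57 at day 5, 5.07 at day 8, 4.94 at day 11, 4.73 at day 16 and 4.86 at day 18. After day 0 it was detected at day 5 only. Cd52 stood at 7.44, 5.07, 5.60, 5.15, 5.02, 4.66 and 4.81 on the same days, and likewise was detected again at day 5 only. Adgre1, at 7.09 at day 0, lay between 4.68 and 5.27 later and was undetected from day 2 on. F13a1 was undetected from day 2 on as well.

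Lyz2 was detected for longer. It stood at 11.67 at day 0, 8.26 at day 2, 10.46 at day 5, 9.99 at day 8, 9.45 at day 11, 7.74 at day 16 and was undetected at 4.90 at day 18. Tyrobp and Cd52, undetected at day 2, were just above background at day 5, while Lyz2 was low at day 2 and clearly higher again at day 5. Laptm5 ran the other way: 11.24 at day 0, 11.03 at day 2, 11.46 at day 5, 12.34 at day 8, 12.82 at day 11, 13.33 at day 16 and 12.72 at day 18. Its day 16 array was the highest of the course, while Lyz2 was by then lower than at any earlier day.

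**Figure D4:**
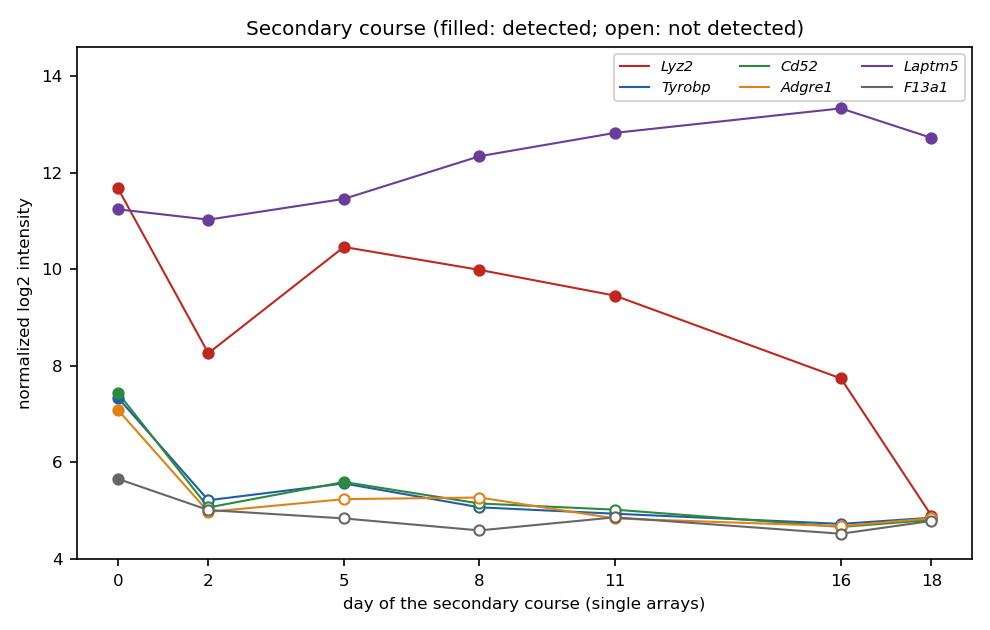
Normalized log2 intensity (vertical axis) of the 6 genes against the day of the secondary course (horizontal axis); each point is 1 array, filled where the probe was detected. Lyz2 ends undetected at day 18, Laptm5 is at 13.33 at day 16, and the other 4 are near background after day 0.

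Among the clones, F-class had less Lyz2 than C-class. It was detected on all 28 clone arrays, with a lowest level of 7.36, a median of 8.36 and a highest of 9.27 in the 6 F-class clones, against 8.21, 9.43 and 10.88 in the 22 C-class clones. The ranges overlapped. The means were 8.27 ± 0.70 in F-class (SD, n = 6) and 9.38 ± 0.64 in C-class (SD, n = 22). The difference was -1.11 (SE 0.30, adjusted p = 0.0061 by limma with Benjamini-Hochberg adjustment over 10601 genes), and it stayed called without any single array (-1.31 to -0.93). With the ESC and fibroblast arrays in the same fit, limma adjusted p was 0.14. Those arrays leave the clone values as they are but widen the pooled spread, because the members were chosen for differences within them. Of the 4 members tested, 1 was lower and 0 higher, where 29.8% of genes were called, 17.3% higher and 12.5% lower.

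The probe used for the paralog Lyz1 showed the same difference, 9.92 ± 0.65 in F-class (SD, n = 6) against 11.06 ± 0.63 in C-class (SD, n = 22), -1.13 with SE 0.30 and a limma adjusted p of 0.0048. That probe may also bind Lyz2 RNA, so its values may not be independent of Lyz2. Over the 28 clones Lyz2 and Lyz1 correlated at r = 0.980. The r of Lyz2 with the collagen gene Col1a1, 1 of the 16 fibroblast genes, was 0.75 there, and values for the others are not given. These arrays share their chip type and their classes, and the values are descriptions. Of 15 fibroblast genes tested, 2 were lower in F-class and 0 higher, and the part of residual fibroblast or macrophage RNA in the Lyz2 difference was not tested.

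The other members hardly separated the classes. Laptm5 had a lowest level of 11.48, a median of 12.49 and a highest of 13.49 in F-class, against 10.51, 13.16 and 13.70 in C-class, and its difference was -0.15 (SE 0.42, limma adjusted p = 0.81). Tyrobp averaged 4.83 ± 0.10 in F-class (SD, n = 6) and 5.00 ± 0.30 in C-class (SD, n = 22), a difference of -0.17 (SE 0.13, limma adjusted p = 0.31). It entered the test through 2 C-class arrays, clone 15 at 5.83 and clone 23 at 5.54. Cd52 averaged 5.11 ± 0.21 in F-class and 5.18 ± 0.25 in C-class (SD, n = 6 and n = 22), with limma adjusted p = 0.68, and was detected in clone 15 alone, at 5.99. Clone 15 was thus the highest clone for Lyz2, Tyrobp and Cd52. Adgre1 and F13a1 were undetected on all 28 clone arrays and were not tested. At day 30 F-class clone 1 had Lyz2 at 7.06, against 8.16 at day 16, and Laptm5 at 12.63, with the other 4 undetected.

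Among the wider macrophage genes 30 were tested, of which 1 was higher in F-class and 8 lower. Over all genes 17.3% were called higher and 12.5% lower. The median difference of the 30 was -0.34, against 0.04 over all genes. Arhgdib averaged 7.94 in F-class and 9.33 in C-class, a difference of -1.40 (limma adjusted p = 0.00017). Gpnmb, a lysosomal glycoprotein, differed by -0.97, and Ccl2, detected on 3 of 6 F-class and 19 of 22 C-class arrays, by -1.10. Lcp1, the leukocyte actin bundler plastin, was undetected on all 6 F-class arrays (mean 4.91) and detected on 15 of 22 C-class arrays (mean 6.08), at least 1.38-fold lower in F-class. It and Csf2ra were undetected on every F-class array and entered the test through C-class and iPSC arrays. With detection required on every array of a group, 1 gene was higher in F-class and 5 were lower. The gene that was higher was Lgmn, a lysosomal protease, at 0.50. Csf1 was lower in F-class, with a difference of -1.17 (limma adjusted p = 0.0059).

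Against iPSC, both clone classes had more Laptm5, and C-class had more Lyz2. Laptm5 stood at 11.29 and 10.06 in the secondary and the primary iPSC. The difference was 1.84 for F-class minus iPSC (SE 0.74, limma adjusted p = 0.035), 1 of 4 members tested, where 56.9% of genes were called, 30.9% higher and 26% lower. For C-class minus iPSC it was 1.99 (SE 0.67, limma adjusted p = 0.013). All 6 F-class clones stood above both iPSC arrays, and 3 of 22 C-class clones did not. Without the primary iPSC array the differences were 1.22 and 1.37, and neither was called (adjusted p = 0.32 and 0.24). The F-class call was also lost without clone 6 (adjusted p = 0.065) and without clone 27 (adjusted p = 0.051).

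Lyz2 stood at 6.69 and 8.36 in the secondary and the primary iPSC, with 3 of 6 F-class clones and 2 of 22 C-class clones at or below the higher of them. The difference was 1.86 for C-class minus iPSC (SE 0.48, limma adjusted p = 0.0017), which with Laptm5 made 2 of 4 members, where 55.9% of genes were called, 29.1% higher and 26.8% lower. Without the secondary iPSC array it was 1.03 (adjusted p = 0.21). For F-class minus iPSC it was 0.75 (SE 0.53, limma adjusted p = 0.24). The iPSC arrays have more decimals than every clone array, so within these 30 arrays decimal format and clone against iPSC cannot be told apart. With format as a term and the ESC and fibroblast arrays added, the C-class calls were lost (limma adjusted p = 0.75 for Lyz2 and 0.21 for Laptm5). That of Laptm5 in F-class was lost too (limma adjusted p = 0.23). The format term is estimated only from the ESC pair and the fibroblast pair, whose differences chose the members. The lost calls therefore cannot tell a format effect from those differences.

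Tyrobp was undetected in both iPSC arrays (4.64 and 5.16 in the secondary and the primary), and Cd52 was detected in the primary at 5.58 and not in the secondary at 5.00. Neither was called against either class, with limma adjusted p between 0.48 and 0.81 for the 4 differences. Tyrobp was detected on 0 of 6 F-class and 2 of 22 C-class arrays, and Cd52 on 0 and 1. Most of these levels are background and have no order, so the tests could hardly find a difference. Of the 30 wider macrophage genes, 4 were higher and 8 lower in F-class than in iPSC. Over all genes 30.9% were called higher and 26% lower. In C-class 5 of the 30 were higher and 5 lower than in iPSC, where 29.1% of all genes were called higher and 26.8% lower. With decimal format as a term, which again rests on the ESC and fibroblast pairs alone, the counts among the 30 were 0 and 8 in F-class and 0 and 2 in C-class. With detection required on every array of a group, 1 was higher in F-class and 2 in C-class, and without the secondary iPSC array 2 were higher in C-class. Coro1a was lower in both classes, with differences of -2.49 in F-class and -1.92 in C-class, and Aif1, a calcium-binding protein of macrophages, was undetected in both iPSC arrays and at least 1.69-fold higher in F-class. These 2 comparisons share the iPSC arrays.

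In the HDACi and Tet-Myc cultures Lyz2, detected in all clones, was undetected: it lay between 4.60 and 5.17 and was detected on 0 of 10 arrays. Tyrobp and F13a1 were undetected there as well. Cd52, Adgre1 and Laptm5 were left to test among 10154 genes on these 10 arrays.

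Laptm5 stood at 11.59 and 11.86 at 0 h of the HDACi, at 10.97 and 11.08 at 24 h, and at 10.46 and 10.30 at 48 h. The 3 times did not overlap, which 2 arrays per time can easily give. Runx1 and S100a8, undetected at 0 h and 48 h, did not overlap between those times either. The difference was -0.71 at 24 h (SE 0.91, limma adjusted p = 0.79) and -1.35 at 48 h (SE 0.91, limma adjusted p = 0.31), so neither passed. The spread in that fit includes the Tet-Myc arrays. With the 6 HDACi arrays fitted alone, an alternative chosen after seeing the data, adjusted p was 0.021 at 24 h and 0.00052 at 48 h. At 48 h the difference was also called without either of the Tet-Myc arrays with doxycycline (adjusted p = 0.0033 in both cases).

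Cd52 stood at 5.36 and 5.29 at 0 h, 5.27 and 4.95 at 24 h, and 5.50 and 6.42 at 48 h, where alone it was detected. The difference at 48 h was 0.63 (limma adjusted p = 0.17). Adgre1 stood at 5.29 and 4.73 at 0 h, 5.47 and 4.73 at 24 h, and 5.28 and 5.61 at 48 h, a difference of 0.43 at 48 h (limma adjusted p = 0.37). By limma 0 of 3 members were called at 24 h or at 48 h, and 0 had an unadjusted p under 0.05, where 2.09% and 28.6% of genes were called (5.15% and 38.2% with the replicate number as a block).

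The wider macrophage list had 21 genes tested. At 24 h 0 were called by limma, and 2 had an unadjusted p under 0.05. With the replicate number as a block 1 was higher and 1 lower, and with the HDACi arrays alone 3 and 3. At 48 h 3 were higher and 1 lower, against 5 and 2 with the block, 6 and 3 with the HDACi arrays alone, and 5 and 3 without either Tet-Myc array lacking doxycycline. Leaving out any 1 HDACi array gave 2 and 1. Csf2ra, a chain of the GM-CSF receptor, differed by 2.88, and Fcgr2b, detected on 1 of 2 arrays at 48 h, by -2.21. Cd37, a leukocyte tetraspanin, was undetected at 0 h and at least 2.68-fold higher at 48 h. Mrc1 was undetected at 0 h, detected on 1 of 2 arrays at 48 h, and at least 1.28-fold higher. Of 6 MHC class II genes tested 4 were higher at 48 h, where 14.2% of genes were called higher and 14.5% lower, among them Cd74 at 3.09 (limma adjusted p = 0.0056, detected on 1 of 2 arrays at 0 h) and H2-Eb1 at 2.43.

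In the Tet-Myc lines the Laptm5 difference had opposite signs. It stood at 10.88 in line 1 and 11.35 in line 2 after 48 h without doxycycline, against 9.09 in line 1 and 12.55 in line 2 with doxycycline. The difference without minus with was 1.79 in line 1 and -1.20 in line 2, and 0.30 over both (SE 0.91, limma adjusted p = 0.85). Leaving out line 1 with doxycycline turned it to -1.43, and leaving out line 2 with doxycycline gave 2.03. Each of these sets both lines without doxycycline against a single line with it, so it mixes in the difference between the lines. Cd52 stood at 5.15 in line 1 and 5.51 in line 2 without doxycycline, against 5.65 and 6.01 with it. It was undetected on both arrays of line 1, so only line 2 had a measured difference, of -0.50. Over both lines the difference was -0.50 (limma adjusted p = 0.31). Adgre1 stood at 5.25 and 5.56 without doxycycline, against 6.00 and 5.41 with it (-0.30, limma adjusted p = 0.58). It was detected on 1 array of each condition. By limma 0 of 3 members were called, and 0 had an unadjusted p under 0.05, where 15.3% of genes were called, 7.38% higher and 7.92% lower (25.1% with the line as a block). Of 21 wider macrophage genes 2 were higher without doxycycline and 0 lower, Arhgdib by 2.25 and Tlr2, a receptor for bacterial lipoproteins, by 2.02. With the line as a block 5 were higher and 2 lower: Runx1, Csf2ra and Fcgr3 were added as higher, and Cebpb and Ptpn6 as lower. Without line 2 lacking doxycycline 5 were higher and 0 lower.

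The genes most like the mean of the 6 members over 51 arrays, among 12209 detected somewhere, were Clec4d (Pearson r = 0.931), Ms4a7 (0.916), C1qb (0.904), Wfdc17 (0.888), Cd84 (0.887), C1qc (0.886), Casp1 (0.882), Clec4n (0.881), Fcgr4 (0.861), Arhgap25 (0.860), Trem2 (0.850) and Ccl9 (0.850). Of these 12, 6 are on the fixed macrophage lists. The 51 arrays include those from which the members were chosen, so this is no independent evidence. Over the 49 arrays other than ESC the first 12 shared 8 with these, and Ms4a7 (0.872) and Lyz1 (0.856) led. Over the 47 arrays without ESC and fibroblasts 3 were shared, and 3 of those first 12 were on the fixed macrophage lists. Lyz1 (0.886) and Ms4a7 (0.847) led there, and Serpinb2, S100a4, Itgb1, Cav1 and Acta1, on none of the lists, were among the 12.

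The members themselves parted once the 2 high arrays were left out. Over all 51 arrays Tyrobp and Cd52 correlated at r = 0.90, and Cd52 and Adgre1 at 0.94. Over the 49 others Tyrobp and Cd52 correlated at 0.15, Cd52 and Adgre1 at 0.63, Lyz2 and Tyrobp at 0.61, Lyz2 and Laptm5 at 0.50, and Lyz2 and Cd52 at -0.21. Most of those levels of Tyrobp, Cd52, Adgre1 and F13a1 are undetected, so the correlations among them there are of values near background.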

How the data were processed

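Each of 51 mouse cultures gave RNA for 1 Illumina beadarray of the MouseRef-8 v2.0 type. The authors deposited, per the file headers, an unnormalized signal intensity and a detection p-value for each of 25697 probes and array; the labels do not give the labelling protocol. A second deposited table of signal intensity, scaled by the authors in a way the sources used here do not give, was an alternative. Through the platform annotation 23978 probes had 1 gene symbol and 1719 had none, and no probe with several was named.

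Intensities were background-corrected, quantile-normalized and put on the log2 scale by neqc (limma 3.58.1, R 4.3.3, offset 16), which here took the level of the negative controls from the detection p-values. Of several probes, the one with the highest mean was kept. Genes detected on at least 2 arrays of a fit entered lmFit and eBayes, two-sided, with Benjamini-Hochberg adjustment over all genes tested; a gene was called at adjusted p below 0.05. One fit held the F-class, C-class and iPSC arrays (30), the other the Tet-Myc and HDACi arrays (10). The pairs of single arrays were described by differences of at least 1 on the log2 scale. The fitting was tested on simulated data. Tables were made in Python 3.11.15 and figures in matplotlib 3.10.9.

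Tet-Myc line numbers pair arrays by cell line (correlation of deviations r = 0.503). For the HDACi arrays the labels give a replicate number and do not say whether same-numbered arrays are paired. Their correlations of deviations were 0.259 for 24 h with 0 h, 0.0914 for 48 h with 0 h and 0.0779 for 48 h with 24 h. Alternatives were other normalizations, probe rules, filters and fits, and each array left out. The members, gene lists and tests were chosen with earlier results of these data known. Named besides the members were genes of the fixed lists highest on ESC replicate 1 or called in a tested comparison, the 12 most like the members, and the largest differences of each pair; a few list genes outside this rule, such as Ptprc, Spi1, Nanog, Cd83, Cma1 and Cd3g, were chosen after their values were seen.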

Additional observations from a re-analysis of the deposited data

Results flagged for a closer look

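Laptm5 moved in opposite directions in the Tet-Myc lines. The difference after 48 h without doxycycline minus with doxycycline was 1.79 in line 1 and -1.20 in line 2, so the lines differed by 2.99 on the log2 scale. There is 1 array per line and condition, the probe was detected on all 4, and the difference between the lines was not tested.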

How the results depend on the processing

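The ESC pair had 1100 genes at least 2-fold higher, and 594 without background correction, 597 with the authors' scaled values and 310 at a log2 difference of 2; for the fibroblast pair these were 756, 342, 347 and 115. The members' median was 5.61 for ESC, and 3.81, 3.82 and, with all probes of a gene averaged, 5.30; for fibroblasts it was 2.16, and 1.00 and 1.01 under the first 2 of these. Wider macrophage genes higher on ESC replicate 1 numbered 40, and 24, 25, 10 where both arrays detected the gene and 22 at a log2 difference of 2; in secondary fibroblasts 26, and 9 and 17 under the last 2. Decimal format as a term left 2707 of 6034 calls for F-class minus iPSC and 1864 of 5928 for C-class minus iPSC; it turned Lyz2 in F-class minus iPSC to -0.27 and Tyrobp in C-class minus iPSC to -1.40. Without ESC and fibroblast arrays format could not be fitted. Its term thus holds only the differences within those pairs, from which the members were chosen. The HDACi arrays alone gave 1756 calls at 24 h and 4997 at 48 h, against 212 and 2907. The replicate block gave 523 calls at 24 h and 2553 for Tet-Myc (1553 without it) and changed no member's call. Leaving out each array gave counts from 2392 to 3248 for F-class minus C-class, 4442 to 6108 for F-class and 3969 to 6044 for C-class minus iPSC, 0 to 458 at 24 h (0 without HDACi 24 h replicate 1 or 2, or 0 h replicate 2), 1140 to 3677 at 48 h (lowest without 48 h replicate 2) and 826 to 2023 for Tet-Myc (lowest without HDACi 24 h replicate 1). Member differences that were uncalled over all arrays and changed sign ran from -0.10 to 0.003 (Cd52) and -0.35 to 0.053 (Laptm5) for F-class minus C-class, -0.081 to 1.58 (Lyz2) and -0.33 to 0.19 (Tyrobp) for F-class minus iPSC, -0.15 to 0.36 (Tyrobp) for C-class minus iPSC, -0.29 to 0.45 (Adgre1) at 24 h and -1.43 to 2.03 (Laptm5) for Tet-Myc. The causes were not tested. Signal over background limits Tyrobp, Cd52, Adgre1 and F13a1, undetected on most arrays.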

Other observations

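Beyond the macrophage genes, Cd3g, a chain of the T cell receptor complex, reached 11.06 at 24 h of the HDACi (replicate 1), while it was undetected at 4.54 on ESC replicate 1 and 4.79 in secondary fibroblasts. Hbb-y, an embryonic globin, reached 11.97 in F-class clone 1 at day 30, and Hba-a1, an adult globin, 10.67 in C-class clone 20; both were undetected on ESC replicate 1. These blood genes were highest on arrays other than those where the 6 macrophage transcripts were high.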
